A study of Homo sapiens with 49 samples.

Results

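MFGE8, L1CAM, NTNG1, SMR3B and SMIM5 code for 5 secreted or membrane proteins whose transcripts were among the largest falls in Ishikawa cells given 1000 pM ethinyl estradiol. They were picked by that fall, so 5 genes are described out of 19774 that have a probe set of their own on the array. Ishikawa is an established line from a human endometrial adenocarcinoma that carries the estrogen receptor, and ethinyl estradiol (EE) is the synthetic estrogen of oral contraceptives. The cells were grown in phenol red-free medium with serum written CSS in the labels, and then received EE at 0.1, 0.3, 1, 3, 10, 100 or 1000 pM, or ethanol vehicle alone, for 72 h. The ethanol share of the medium was the same in all groups. Each group held 6 arrays and the 0.3 pM group held 7, which makes 49 arrays of one cell line. No label tells if the replicates came from cultures grown apart, so every p-value reflects only how far these samples scatter, and that scatter may be technical. In such bulk samples, fewer cells that carry a transcript and less transcript per cell cannot be told apart.

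MFGE8 codes for lactadherin, a secreted protein that binds phosphatidylserine on dying cells and membrane vesicles and, through an RGD motif, integrins of the alpha-v family on the cells that take them up. L1CAM is an immunoglobulin-type adhesion molecule first known from growing axons; in endometrial carcinoma its presence on tumour cells is used as a marker of poor outcome, and sheddases such as ADAM10 release its outer part. NTNG1 codes for netrin-G1, a lipid-anchored relative of the netrins that binds the adhesion protein NGL-1 (LRRC4C) rather than the classical netrin receptors. SMR3B codes for a small proline-rich protein secreted by salivary glands, in a cluster of genes for saliva, milk and enamel proteins. SMIM5 codes for a small protein with one predicted membrane span and little described function. Estrogen acts through the estrogen receptor, which binds DNA at a palindrome of GGTCA half-sites or is held at other factors' sites, and lowers as well as raises transcripts.

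The regions just before the listed starts of these genes are shown because they differ in base composition, between genes and between starts of one gene. Among the windows at hand, that of SMR3B was the poorest in G and C. A link between base composition and the response to EE was not tested. The set of starts used here (build GRCh38.p14) gives the upstream 250 bases for 4 of the 5 genes. It holds 2 windows for MFGE8, 2 for L1CAM, 3 for NTNG1 and 1 for SMR3B. That set had no window for SMIM5. The windows printed are chr15:88913380-88913629 (minus strand) for MFGE8, chr1:107139838-107140087 (plus strand) for NTNG1 and chr4:70382881-70383130 (plus strand) for SMR3B, each written 5′ to 3′ towards the start. Capitals mark an estrogen half-site (GGTCA or TGACC) or a GC box (GGGCGG or CCGCCC).
MFGE8: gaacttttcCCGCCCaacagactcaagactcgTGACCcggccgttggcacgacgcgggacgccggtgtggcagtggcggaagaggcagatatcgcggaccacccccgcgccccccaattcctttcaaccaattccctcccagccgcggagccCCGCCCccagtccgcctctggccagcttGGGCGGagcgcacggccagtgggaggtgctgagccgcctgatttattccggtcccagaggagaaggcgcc
NTNG1: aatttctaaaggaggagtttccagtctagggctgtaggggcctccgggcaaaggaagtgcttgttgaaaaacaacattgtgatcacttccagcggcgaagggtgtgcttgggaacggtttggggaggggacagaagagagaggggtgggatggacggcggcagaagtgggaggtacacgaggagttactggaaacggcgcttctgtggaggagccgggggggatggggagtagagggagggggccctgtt
SMR3B: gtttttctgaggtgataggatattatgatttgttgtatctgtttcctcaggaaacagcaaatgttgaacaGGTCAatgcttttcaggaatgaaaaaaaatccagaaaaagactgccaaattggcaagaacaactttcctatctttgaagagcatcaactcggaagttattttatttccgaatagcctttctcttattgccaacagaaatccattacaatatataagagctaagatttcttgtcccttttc
The GC content was 67.6% in the MFGE8 window printed, 58.0% in that of NTNG1 and 34.4% in that of SMR3B. The second MFGE8 window had 75.6% GC, 2 GC boxes and no half-site, and the other NTNG1 windows had 50.4% and 79.2% GC with 1 and 4 GC boxes, so windows of one gene differ too. The median over all 35116 windows of this length was 58.0%, and 12.7% of them lay under 40% GC, as did that of SMR3B. The MFGE8 window held 3 GC boxes and 1 half-site, and the SMR3B window held 1 half-site and no GC box. An L1CAM window at chrX:153875945-153876194 (minus strand) had 62.4% GC and 2 GC boxes. Over all windows, a half-site stood in 32.6% and a GC box in 42.6%, on either strand, so neither is unusual. The full palindrome GGTCANNNTGACC, found in 0.0399% of windows, stood in none of the members' windows. Nor did an AP-1 site (TGANTCA, in 6.57% of windows) or the exact TATA box letters TATAAA (in 10.7%). Close to its 3′ end the SMR3B window reads tatataag, a TATA-like stretch that the exact search did not count. These are letters in a short stretch and say nothing about where a factor binds.

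The array carries 11 probe sets of these 5 genes alone. The deposited values are log2 levels, and a level of 4 is used here as the floor under which probe sets lie near the background. A probe set entered the tests if it exceeded 4 on at least 6 arrays, and 5 of the 11 did, one for each gene. SMR3B was measured far from the floor: its probe set 207441_PM_at lay between 6.74 and 9.03 and was above the floor on 49 of 49 arrays. MFGE8 (210605_PM_s_at) was above it on 49 arrays too, between 4.25 and 7.47. NTNG1 (236088_PM_at) was above the floor on 46 arrays, SMIM5 (229740_PM_at) on 39 and L1CAM (204584_PM_at) on 27. Levels of different probe sets are not comparable between genes, so these counts say only which measurements come close to the floor. The other 6 probe sets, 3 of MFGE8, 1 of L1CAM and 2 of NTNG1, stayed under 4 on all 49 arrays, the highest value being 3.64 for an NTNG1 probe set. They give no measurement of a fall, and each gene's values therefore rest on 1 probe set. A probe set shared by SMR3A and SMR3B (214565_PM_s_at), which cannot be given to either gene, lay between 3.19 and 5.12 and is not counted as a member.

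The epithelial identity of the line was plain on all arrays. The 9 endometrial epithelial markers listed, among them EPCAM, CDH1, PAX8 and SOX17, were above the floor on all 49 arrays, and 0 of 10 markers of leukocytes, endothelium, stroma and muscle exceeded it on any, the highest being 3.3 for VWF. Array medians ranged from 2.95 to 3.05. In 4 arrays, which are number 5 of vehicle, number 2 of 0.3 pM and number 6 of both 3 and 1000 pM, the 3′ beta-actin control exceeded the 5′ one by 2.67 to 4.62 on the log2 scale, against 0.8 to 2.06 in the other 45. The same 4 had a GAPDH difference of 0.4 to 1.79, against -0.21 to 0.19. A large 3′ excess is a usual sign of shortened or incompletely copied RNA, and values that move when they are left out are given both ways. The estrogen response itself was plain at 100 pM: the progesterone receptor gene PGR rose by 4.65 ± 0.18 (SE) on the log2 scale against the 0.1 and 0.3 pM arrays, and the estrogen receptor gene ESR1 differed by -0.01 ± 0.04.

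Because the vehicle and 1000 pM arrays chose the members, their difference is a description only. At 1000 pM MFGE8 lay 1.43 ± 0.28 below vehicle on the log2 scale, SMIM5 1.17 ± 0.13, L1CAM 1.16 ± 0.20, SMR3B 1.13 ± 0.19 and NTNG1 1.00 ± 0.13 (SE from the fit). Among 22721 probe sets these were the falls ranked 1, 7, 8, 9 and 15, so the choice skipped others of the same size and had no stated threshold. In that contrast 2.78% of probe sets were called lower. Without the 4 arrays of large beta-actin difference the differences were -1.33 ± 0.16 for MFGE8, -1.17 ± 0.21 for SMR3B, -1.01 ± 0.13 for SMIM5, -1.0 ± 0.11 for NTNG1 and -0.97 ± 0.20 for L1CAM. In this order they then ranked 3, 5, 15, 17 and 22 among the falls. From 100 to 1000 pM the members moved by between -0.36 (SMR3B) and 0.13 (L1CAM); MFGE8 moved by -0.10, and by -0.29 ± 0.15 without the 4 arrays.

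MFGE8, lactadherin, was the largest of these falls. Its level in vehicle ranged from 5.46 to 7.47 with a median of 5.88. The medians were 5.70 at 0.1 pM, 5.64 at 0.3 pM, 5.48 at 1 pM and 5.53 at 3 pM, which lie within each other's spread. At 10 pM the level ranged from 4.96 to 5.54 (median 5.13), at 100 pM from 4.60 to 4.97 (median 4.77) and at 1000 pM from 4.25 to 5.58 (median 4.54). All 6 arrays at 100 pM lay below every vehicle array, and the gene stayed above the floor throughout. The highest array in vehicle, at 0.3, at 3 and at 1000 pM was in each case the one with the large beta-actin difference. On those 4 arrays MFGE8 read 7.47, 7.31, 7.04 and 5.58, which is 1.10 to 1.66 above the mean of the other arrays of the same group.

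L1CAM, the adhesion molecule, crossed the floor. In vehicle it ranged from 3.86 to 5.49 (median 4.60) and was above 4 on 5 of 6 arrays. The medians were 4.42 at 0.1 pM, 4.62 at 0.3 pM, 4.49 at 1 pM and 4.16 at 3 pM, where 4 of 6 arrays were above 4. At 10 pM the level ranged from 3.44 to 4.09 (median 3.77) with 1 of 6 arrays above the floor. At 100 pM it ranged from 3.11 to 3.67 (median 3.32) and at 1000 pM from 2.99 to 3.71 (median 3.55), with no array above it. At both concentrations the level is therefore only bounded: set against the floor, L1CAM was at least 1.55-fold lower than the vehicle mean and at least 1.39-fold lower than the mean of the 0.1 and 0.3 pM groups. Fitted changes below use the values as deposited.

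NTNG1, netrin-G1, came down in small steps with little scatter. It ranged from 4.81 to 5.45 in vehicle (median 5.28), and its medians were 5.29 at 0.1 pM, 5.18 at 0.3 pM and 5.12 at 1 pM. At 3 pM it ranged from 4.33 to 5.09 (median 4.84), at 10 pM from 4.45 to 4.65 (median 4.54) and at 100 pM from 3.85 to 4.58 (median 4.20). At 1000 pM it ranged from 3.81 to 4.38 (median 4.25), with 4 of 6 arrays still above the floor. No array at 10 pM or above reached the lowest vehicle array. On the 4 arrays of large beta-actin difference NTNG1 moved against MFGE8: it lay 0.43 to 0.56 below the mean of the other arrays of its group.

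SMR3B, the salivary proline-rich protein, held its level over most of the range. Its medians were 8.42 in vehicle, 8.53 at 0.1 pM, 8.52 at 0.3 pM, 8.45 at 1 pM, 8.36 at 3 pM and 8.41 at 10 pM. At 10 pM it ranged from 7.77 to 8.94, against 7.77 to 8.83 in vehicle, so the groups overlap entirely. At 100 pM it ranged from 7.06 to 8.12 (median 7.61) and at 1000 pM from 6.74 to 7.50 (median 7.31). Thus 1000 pM lay below every vehicle array and 100 pM overlapped vehicle by its upper arrays. The level stayed far above the floor, so its fall is not limited by the background. The probe set shared with SMR3A had medians of 4.51 in vehicle, 4.20 at 10 pM, 3.76 at 100 pM and 3.57 at 1000 pM. By means vehicle (4.21) lay below 10 pM (4.30). Its vehicle arrays ranged from 3.41 to 4.77, and 5 of 6 arrays at 100 pM, as at 1000 pM, reached the lowest of them.

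SMIM5, the small membrane protein, fell to the floor. It ranged from 4.53 to 5.21 in vehicle (median 4.89), with medians of 4.84 at 0.1 pM, 4.81 at 0.3 pM and 4.63 at 1 pM. At 3 pM it ranged only from 4.38 to 4.57 (median 4.51) and at 10 pM from 4.01 to 4.34 (median 4.15), which was below every 3 pM array. At 100 pM it ranged from 3.58 to 4.30 (median 3.79) and at 1000 pM from 3.25 to 4.04 (median 3.80), each with 1 of 6 arrays above 4. The lower end of its curve therefore lies where the array no longer measures well.

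**Figure D1:**
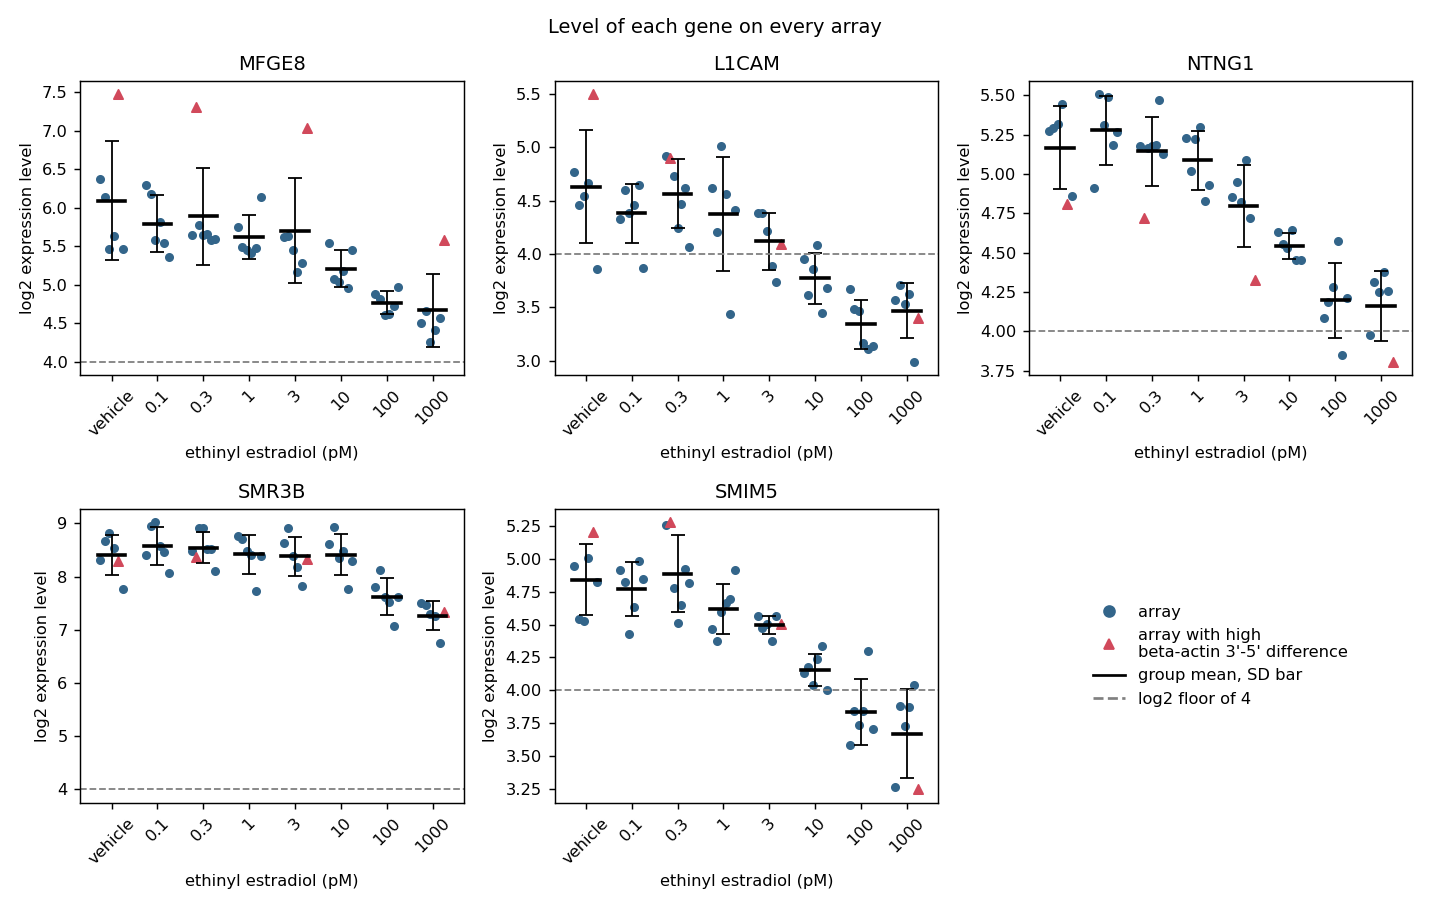
Log2 expression level of each gene's probe set (vertical axis) on all 49 arrays, by EE concentration in pM (horizontal axis, evenly spaced groups); points are arrays, triangles the 4 arrays with a large beta-actin 3′ excess, black lines group means with SD bars, and the dashed line the floor of 4. L1CAM is under the floor on all arrays at 100 and 1000 pM, SMR3B stays above 6.74, and the triangles are the highest MFGE8 arrays of their groups.

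The fall was then tested on arrays that the choice did not use, with 100 pM (6 arrays) against the pooled 0.1 and 0.3 pM groups (13 arrays). Over all tested probe sets, deviations from the group mean correlated between same-numbered arrays of 100 and 10 pM (r 0.295 to 0.544). Between 100 pM and 0.1 or 0.3 pM this r ran from -0.073 to 0.193. Whether a run shared by the higher concentrations, 1000 pM included, adds to the differences was not tested. limma on all 22721 probe sets with Benjamini-Hochberg adjustment called lower all 5 probe sets that had entered, of the 11, where 3.84% of all probe sets were called lower and 2.82% higher. L1CAM entered only through vehicle and arrays at 10 pM or below, since none at 100 or 1000 pM exceeded 4, and SMIM5 almost so, with 1 of 6 arrays above 4 at each of these concentrations. A gene that enters in this way had to be lower at 100 pM, so the calls of L1CAM and SMIM5 and the count of 5 are descriptions. MFGE8 fell by 1.07 ± 0.24 (SE) on the log2 scale (adjusted p = 0.00184), from 5.84 to 4.77, and by 0.95 ± 0.12 without the 4 arrays. NTNG1 fell by 1.01 ± 0.11 (adjusted p = 9.21e-10), from 5.21 to 4.20. SMR3B fell by 0.94 ± 0.16 (adjusted p = 6.01e-05), from 8.56 to 7.62. These 3 falls, 1.92- to 2.10-fold, ranked 6, 10 and 16 among all probe sets. L1CAM, at a mean of 4.47 in the low groups and 3.34 at 100 pM, was at least 1.39-fold lower by the bound given above. Its fitted change was -1.13 ± 0.17 (limma adjusted p = 3.14e-06) on values partly under the floor, and -0.48 with values under 4 set to 4. SMIM5 went from 4.83 to 3.84, a change of -1.0 ± 0.12 (adjusted p = 8.94e-09), or -0.78 with values set to the floor. The median change of all probe sets was -0.002. For every member 6 of 6 arrays at 100 pM lay below the pooled mean, and only SMR3B had an array, 1 of 6, that reached the lowest of the 13. The share of all probe sets that separate in this way was not counted, so how unusual it is stays unknown. For L1CAM and SMIM5 the separation is a description too, given how they entered. The exact two-sided permutation test over these 19 arrays gave p = 3.69e-05 for MFGE8 and NTNG1, the smallest that its 27132 splits allow, and p = 0.000111 for SMR3B. L1CAM and SMIM5 had the same smallest permutation p, but like their calls this is a description. The shared SMR3A and SMR3B probe set had a mean of 4.48 in the low groups and was under the floor on all 6 arrays at 100 pM (mean 3.66). Set against the floor it was at least 1.40-fold lower. Its fitted change on the deposited values was -0.82 ± 0.21 (limma adjusted p = 0.00819), and 4 of 6 arrays at 100 pM reached the lowest of the 13. It too entered almost only through groups where it is higher, so its call is a description.

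The calls differed between members at 10 pM. Against the same 13 arrays, 3 of the 5 were called lower by limma: L1CAM by 0.70 ± 0.17 (adjusted p = 0.0318; 0.47 and adjusted p = 0.0953 with values under 4 set to 4), SMIM5 by 0.68 ± 0.12 (adjusted p = 0.000203) and NTNG1 by 0.67 ± 0.11 (adjusted p = 8.28e-05). Over all probe sets 0.172% were called lower at this concentration. With 1 of 6 arrays above 4 at 10 pM, L1CAM entered almost only through groups where it is higher. Its call here and the count of 3 are therefore descriptions. The NTNG1 and SMIM5 arrays at 10 pM all lay below the lowest of the 13, while 2 L1CAM arrays did not. The share of all probe sets without overlap at 10 pM was not counted. The L1CAM call was lost, with adjusted p up to 0.162, when any 1 of 8 arrays was left out (0.1 pM replicates 2, 4 and 5, 0.3 pM replicate 1, 10 pM replicates 2, 3, 5 and 6). MFGE8 differed by -0.63 ± 0.24, which missed the threshold (adjusted p = 0.439). Without the 4 arrays of large beta-actin difference its change was -0.51 ± 0.12 and passed (adjusted p = 0.0155), in a fit that called 157 probe sets lower in place of 39. Over 16 alternatives the adjusted p for MFGE8 ran from 0.000295 to 1. SMR3B differed by -0.16 ± 0.16 (adjusted p = 1, 95% interval -0.49 to 0.18), with 4 of 6 arrays below the pooled mean.

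At 3 pM none of the 5 passed limma's threshold, and 0 of 22721 probe sets were called lower, while 189 had an unadjusted p under 0.05 and a fall. Of the members 3 had such an unadjusted p. NTNG1 differed by -0.42 ± 0.11 (adjusted p = 0.282), L1CAM by -0.36 ± 0.17, SMIM5 by -0.33 ± 0.12, SMR3B by -0.18 ± 0.16 and MFGE8 by -0.14 ± 0.24. The MFGE8 value rests on 3 pM replicate 6 and 0.3 pM replicate 2: without the 4 arrays of large beta-actin difference it was -0.29 ± 0.13, and it ran from -0.41 to -0.02 when 1 array at a time was left out. For NTNG1, L1CAM and SMIM5 6 of 6 arrays lay below the mean of the 13, and the share of all probe sets that do so was not counted. At 1 pM the differences ran from -0.22 (MFGE8) to -0.10 (L1CAM), none passed, and none had an unadjusted p under 0.05, against 223 probe sets that fell at that p. MFGE8 was at -0.10 ± 0.12 there without the 4 arrays. Expressed as a share of the change at 100 pM, NTNG1 had reached 41.2% at 3 pM and 66.0% at 10 pM. The share at 10 pM was 58.9% for MFGE8 and 16.6% for SMR3B. For SMIM5 it was 68.0% on the deposited values and 86.8% with values under 4 set to 4, and for L1CAM 61.8% and 96.9%, so the floor leaves these 2 shares undetermined.

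**Figure D2:**
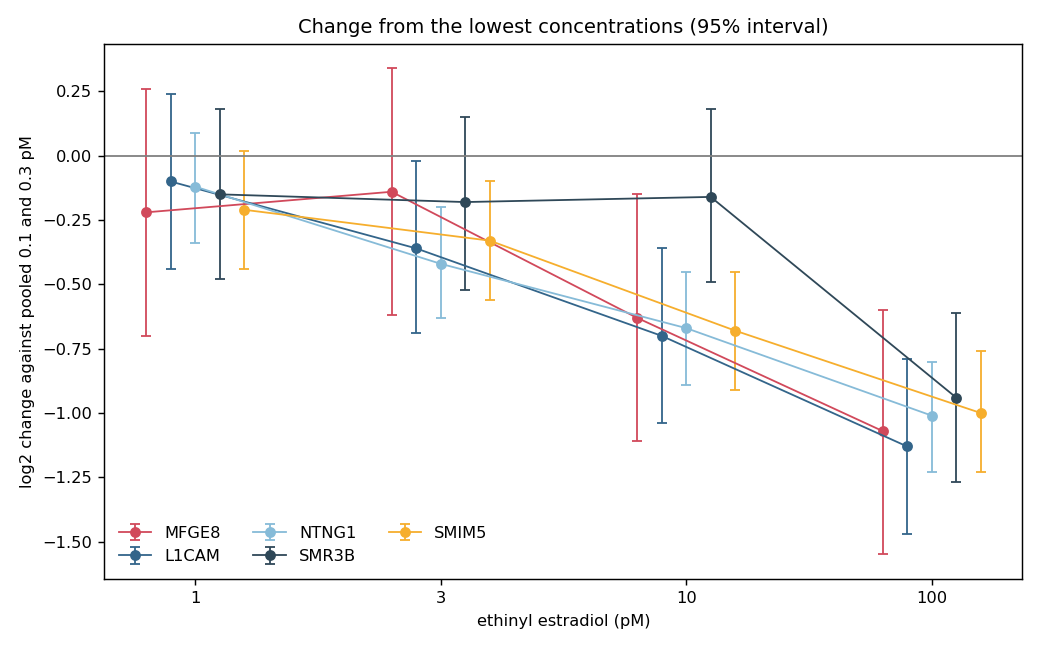
Log2 change of each gene against the pooled 0.1 and 0.3 pM arrays (vertical axis) at 1, 3, 10 and 100 pM EE (horizontal axis, evenly spaced), with 95% intervals from the limma fit; lines join the points of a gene. At 100 pM the 5 genes lie between -1.13 and -0.94, and at 10 pM SMR3B lies at -0.16 while the others lie between -0.70 and -0.63.

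Most of the SMR3B fall lay above 10 pM. From 10 to 100 pM it fell by 0.79 ± 0.19 (limma adjusted p = 0.035), the first-ranked fall of that step, in which 0.128% of probe sets were called lower. The 6 arrays at 100 pM all lay below the 10 pM mean, with 2 at or above the lowest 10 pM array. In a fit that blocks the replicate number within these groups its change was -0.79 ± 0.04 (adjusted p = 7.37e-11), and MFGE8 was called too, at -0.44 ± 0.09 (adjusted p = 0.00332); this fit called 535 probe sets lower in place of 29. Over 15 alternatives the adjusted p ran from 7.37e-11 to 0.0465 for SMR3B and from 0.00332 to 1 for MFGE8. The arrays of the same number differed by -0.81, -0.82, -0.74, -0.95, -0.70 and -0.69 for SMR3B, a range far narrower than that of the levels themselves. Without the block the SMR3B call was lost, with adjusted p up to 0.175, when any 1 of 9 arrays was left out (10 pM replicates 1, 2, 3, 4 and 6, 100 pM replicates 3 to 6). MFGE8 moved by -0.44 and NTNG1 by -0.35, and neither passed without it. L1CAM moved by -0.43 and SMIM5 by -0.32 on values near or under the floor, and by -0.01 and -0.10 with values set to it, so no step is measured for them here. From 3 to 10 pM the same-number differences of SMR3B ran from -0.06 to 0.29 with a median of -0.02, and 4 of 6 were below 0. For SMIM5 they ran from -0.50 to -0.14 and 6 of 6 were below 0. No member was called in that step (limma changes -0.49 for MFGE8 to 0.03 for SMR3B, with MFGE8 at -0.22 ± 0.15 without the 4 arrays), and no probe set fell past the threshold, with 283 at an unadjusted p under 0.05.

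**Figure D3:**
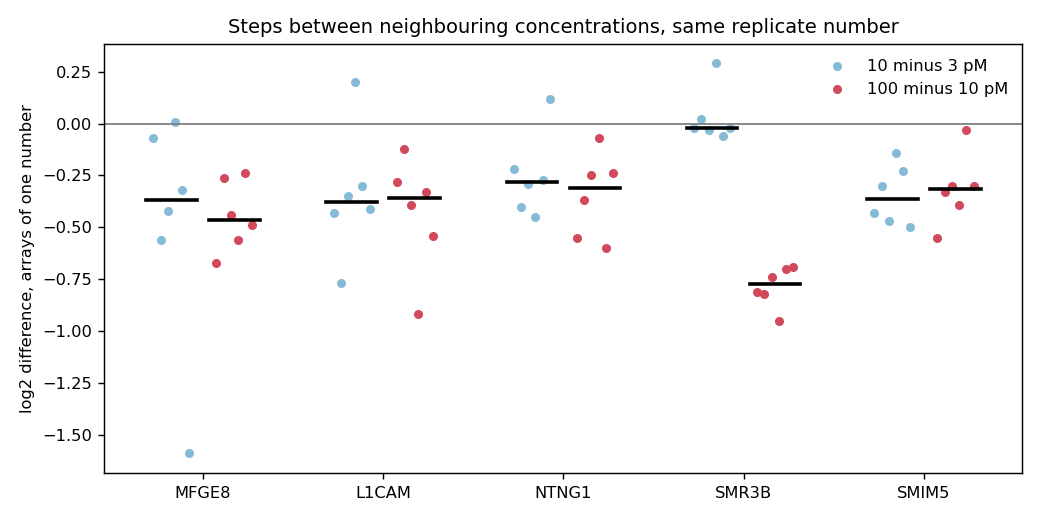
Log2 difference between arrays of the same replicate number (vertical axis) for 10 minus 3 pM (blue) and 100 minus 10 pM (red), by gene (horizontal axis); points are the 6 numbers and black lines their medians. SMR3B is near 0 in the lower step (median -0.02) and between -0.95 and -0.69 in the upper one, while the medians of the other genes lie between -0.46 and -0.28 in both.

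SMR3B was set against the other members with exact two-sided tests on the per-array difference SMR3B minus the other gene. SMR3B was singled out by the same values, so these tests describe the size of the difference and are no independent evidence of it. At 10 pM against the 13 low arrays, the SMR3B change was 0.51 smaller than that of NTNG1 (exact permutation p = 0.00509, adjusted 0.0204 over 8 tests). It was 0.53 smaller than that of SMIM5 (exact p = 0.0388, adjusted 0.1) and 0.48 smaller than that of MFGE8 (exact p = 0.0859, adjusted 0.115), which did not pass. Against L1CAM the difference was 0.55 (exact p = 0.00483, adjusted 0.0204) on the deposited values and 0.32 (exact p = 0.0933) with values under 4 set to 4, so it depends on values under the floor. In the step from 10 to 100 pM SMR3B moved by 0.34 to 0.47 more than each of the others. Over all splits of the 12 arrays no such difference passed (exact p 0.0563 to 0.139). Within pairs of one replicate number the SMR3B step was the larger in 6 of 6 pairs against each of the 4 genes, and an exact sign-flip test gave p = 0.0312 each time, the smallest that 64 sign patterns allow. For L1CAM and SMIM5 these pairs too rest on values near or under the floor.

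The half-maximal concentration was read from a Hill curve of slope 1 on the log2 levels of all 49 arrays, which include those that chose the genes, so it is a description. It was 5.01 pM for L1CAM (95% interval 2.0 to 12.6 pM), 5.25 pM for NTNG1 (2.82 to 10.0 pM) and 6.46 pM for SMIM5 (3.31 to 13.2 pM). For MFGE8 it was 8.32 pM (2.09 to 37.2 pM), and 11.2 pM (4.79 to 30.2 pM) without the 4 arrays. These 4 intervals overlap widely and set no order among the genes. For SMR3B it was 58.9 pM (20.0 to 162 pM), an interval that meets that of MFGE8 and lies above those of the other 3. On the arrays from 0.1 to 100 pM alone the SMR3B value was 158 pM with an interval from 10.0 pM to over 10000 pM, so these arrays alone do not fix it. The floor limits the lower end of the L1CAM and SMIM5 curves: with values under 4 set to 4, L1CAM came to 2.04 pM and SMIM5 to 3.31 pM.

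The raised reference genes had half-maximal concentrations of 4.37 pM (OLFM1, a secreted olfactomedin), 7.41 pM (PGR) and 12.6 pM (GREB1, a receptor cofactor). Over the 872 probe sets lower at 100 pM the median was 8.91 pM with quartiles of 5.25 and 14.8 pM. Only 14 of them (1.61%) had a higher value than SMR3B, whereas 52.4% were above MFGE8, 66.2% above SMIM5, 73.9% above NTNG1 and 76.0% above L1CAM. The 872 were picked by their fall at 100 pM, which disfavours probe sets that move mostly above it. The small share above SMR3B is therefore partly set by that choice.

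**Figure D4:**
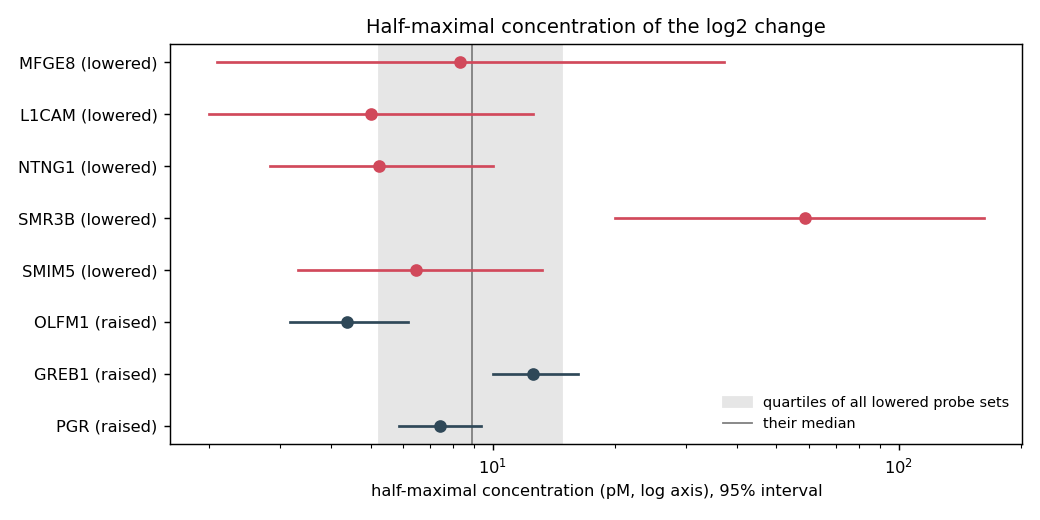
Half-maximal EE concentration in pM (horizontal log axis) of the 5 lowered genes (red) and 3 raised reference genes (dark), with 95% intervals; the grey band spans the quartiles, 5.25 to 14.8 pM, and the grey line the median, 8.91 pM, of the 872 lowered probe sets. The SMR3B point at 58.9 pM lies right of the band.

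The tie between MFGE8 and the beta-actin control was also looked at array by array. Relative to its group, MFGE8 was high and NTNG1 low on all 4 arrays of large 3′ excess. L1CAM lay 1.03 and 0.39 above the other arrays of its group on the vehicle and 0.3 pM ones and 0.03 and 0.09 below on the 3 and 1000 pM ones. SMR3B moved by -0.20 to 0.07 and SMIM5 by -0.51 to 0.46. With the beta-actin difference as a covariate MFGE8 at 10 pM differed by -0.58 ± 0.10 (limma adjusted p = 0.000295). The vehicle to 1000 pM difference of MFGE8 was -1.33 without the 4 arrays and -1.43 with them.

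**Figure D5:**
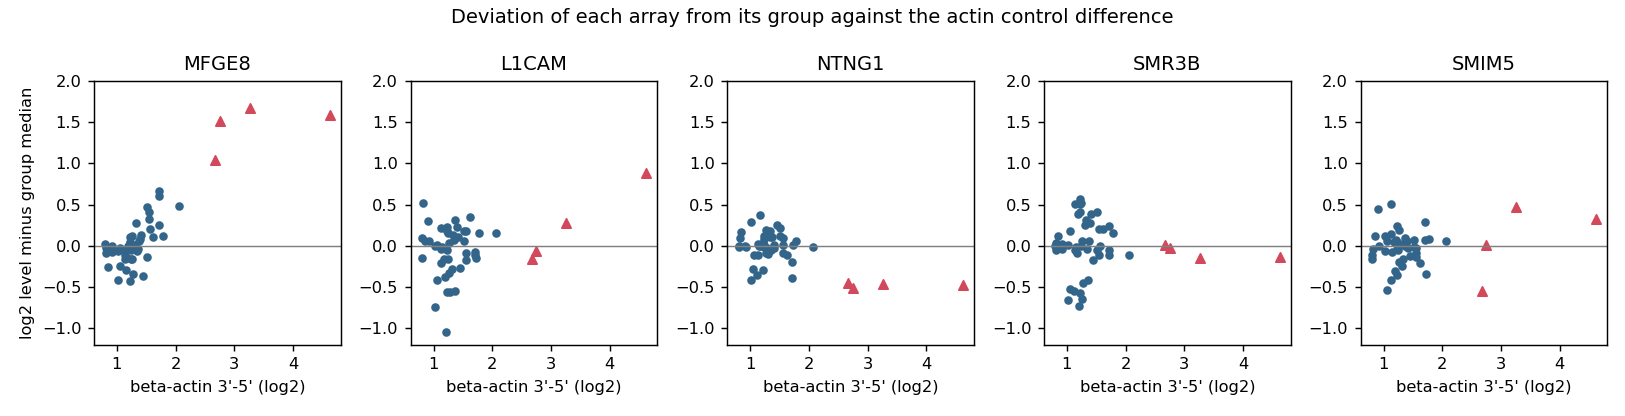
Log2 level of each gene minus the median of its group (vertical axis) against the 3′ minus 5′ beta-actin difference of the array (horizontal axis, log2), one panel per gene; triangles are the 4 arrays at 2.67 or more. MFGE8 is at least 1 above its group median on all 4, and NTNG1 is below its own on all 4.

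Genes with which these proteins work changed in small numbers at 100 pM, and in both directions. Of 27 lactadherin partners and phosphatidylserine recognition genes, 18 were measured, 1 fell and 1 rose, with a median change of -0.07. The integrin subunit ITGB3, a subunit of a lactadherin receptor, was lower by 0.54 ± 0.16 (limma adjusted p = 0.023), and THBS1, the matrix protein thrombospondin, rose by 1.33 ± 0.10. Its partner ITGAV (-0.13 ± 0.07) and the close lactadherin relative EDIL3 (-0.14 ± 0.17) did not pass. Of 25 genes of the L1 family, its partners and sheddases, 17 were measured, 3 fell and 1 rose (median -0.11). The sheddase ADAM10 fell by 0.28 ± 0.04 and the cytoskeletal linker EZR fell by 0.38 ± 0.10. ITGB3 is in this list too, and the growth factor receptor FGFR1 rose by 0.26 ± 0.07. The only other L1-family member measured, NRCAM, differed by 0.07 ± 0.09.

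Of 16 netrins, netrin receptors and netrin-G ligands only 5 were measured. The secreted netrin NTN4 fell by 0.56 ± 0.18 (limma adjusted p = 0.0409), and the dependence receptor UNC5D rose by 0.80 ± 0.12 (adjusted p = 5.7e-06). The netrin-G ligand genes LRRC4, LRRC4B and LRRC4C did not reach the filter, nor did NTNG2. Of 17 genes of the saliva, milk and enamel cluster and of related peptidases, ANPEP alone was measured, and it rose by 2.83 ± 0.14; it is a peptidase and no neighbour of SMR3B. Of 17 small integral membrane proteins measured out of 27, 0 fell and 0 rose by limma, with a median of 0.04. These counts stand beside 3.84% lower and 2.82% higher over all probe sets.

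Few chromosomal neighbours of these genes were measured. Of the 30 nearest protein-coding genes, 3 on each side of each member in RefSeq, 11 were measured, 1 fell and 0 rose. That gene was ABHD2, a lipid hydrolase next to MFGE8, lower by 0.22 ± 0.06 (limma adjusted p = 0.0158). None of the 6 neighbours of SMR3B was measured.

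The genes whose levels followed each member most closely over the 49 arrays differed from member to member. Pearson's r was 0.95 between MFGE8 and CAVIN1, a coat protein of caveolae, 0.94 with the collagen COL26A1 and 0.94 with the membrane scaffold FLOT1. Without the 4 arrays these were 0.92, 0.90 and 0.88. L1CAM was closest to the small GTPase RAB20 (0.91), the ubiquitin ligase MID1 (0.88) and the G-protein regulator RGS3 (0.87). NTNG1 was closest to ADAM10 (0.90), the tropomyosin TPM1 (0.89) and TMTC1 (0.89), and SMIM5 to the annexin partner S100A10 (0.89), TMEM139 (0.86) and the growth factor binding protein IGFBP3 (0.85). SMR3B was closest to WLS, the carrier of Wnt ligands (0.92), PPP1R14C, a phosphatase inhibitor (0.91), and LYPD6B (0.91). All 15 were lower at 100 pM than in the pooled low groups, from -1.13 (COL26A1) to -0.28 (ADAM10). They were picked for a high positive r with genes that fell, so this direction follows from the choice. These correlations share arrays, normalization and dose, and describe likeness only. Within groups, with dose taken out, r ran from 0.22 between SMIM5 and TMEM139 to 0.92 between MFGE8 and FLOT1, and was 0.82 between SMR3B and WLS. These within-group values include the 4 arrays of large beta-actin difference, and how far those arrays carry the MFGE8 ones was not tested.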

How the data were processed

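The authors deposited log2 expression values of 49 arrays and 54715 probe sets, made with GCRMA in Partek per the submitters' processing notes; the genome build is not given in the sources used here. The arrays' number limits the precision. Probe sets were named from the platform annotation (40920 with 1 symbol, 864 with several, 12931 with none). After 102 control probe sets were left out, 22721 exceeded log2 4 on at least 6 arrays. limma 3.58.1 (R 4.3.3) fitted 8 group means with an intensity trend, adjusted over these; threshold 0.05. The test was also run on simulated data. Named were the members, per member the 3 genes most like it and 3 neighbours on each side, and the called genes of each list, at most 5 per direction. Members, lists and tests were chosen with earlier results of these data known. Same-numbered arrays deviated together between 10 and 3 pM (r 0.168 to 0.495 in 6 pairs) and between 100 and 10 pM (0.295 to 0.544). In the comparisons with 0.1 and 0.3 pM they did not. There the medians were -0.079 to 0.044, each over 18 pairs that include those of 0.1 with 0.3 pM. The labels name no batch, so this pairing comes from the values. Curves used least squares over log10 molar EC50 from -14 to -8. Alternatives covered filters, values set to the floor, centring, array weights, the block, the 4 arrays and each array left out.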

Additional observations from a re-analysis of the deposited data

Results flagged for a closer look

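Of 40 combinations of a gene and a group, 6 held an array that stood apart from the rest by Dixon's test, where chance flags about 1 in 20. MFGE8 read 7.31 on 0.3 pM replicate 2 (nearest other array 5.77), 7.04 on 3 pM replicate 6 (nearest 5.64) and 5.58 on 1000 pM replicate 6 (nearest 4.66), all of them arrays with a large 3′ beta-actin excess. SMR3B read 7.72 on 1 pM replicate 5 (nearest 8.40) and 6.74 on 1000 pM replicate 5 (nearest 7.27); replicate 5 was also its lowest array at 3, 10 and 100 pM. SMIM5 read 4.30 on 100 pM replicate 5 (nearest 3.84).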

How the results depend on the processing

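At 100 pM against the 0.1 and 0.3 pM groups the 5 genes kept direction and call in every alternative that measured them, but with values under 4 set to 4 the L1CAM change shrank from -1.13 to -0.48 and that of SMIM5 from -1.0 to -0.78; a filter of log2 over 5 removed L1CAM and SMIM5, which left 3 calls, and 1 call in place of 3 at 10 pM. At 3 pM leaving out the 2 arrays of largest beta-actin difference gave 1 call in place of 0 (NTNG1, -0.45, limma adjusted p = 0.0429). From 10 to 100 pM there were 2 calls in place of 1 with the beta-actin covariate (MFGE8, adjusted p = 0.0414), and 0 at an adjusted p under 0.01. L1CAM at 10 pM lost its call with no filter (adjusted p = 0.0541), with values under 4 set to 4 (-0.47, adjusted p = 0.0953), at an adjusted p under 0.01, and against 0.1 pM alone (adjusted p = 0.415); array weights gave MFGE8 a call there (adjusted p = 0.0198). Leaving out 1 array at a time gave 5 calls at 100 pM, 2 to 3 at 10 pM and 0 to 1 from 10 to 100 pM. The background moved more: probe sets lower at 100 pM ran from 426 (0.1 pM alone) to 2138 (array weights) and higher ones from 341 to 1840, lower ones at 10 pM from 20 to 185 and lower ones from 10 to 100 pM from 14 to 535. Half-maximal concentrations ranged over the alternatives from 4.37 to 11.2 pM for MFGE8, 2.04 to 7.08 pM for L1CAM, 3.55 to 5.25 pM for NTNG1, 45.7 to 158 pM for SMR3B and 3.31 to 6.76 pM for SMIM5. Where no construction shows it, the cause was not tested.

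With the replicate number as a block in all groups the counts of members called were 5 at 100 pM, 3 at 10 pM and 1 from 10 to 100 pM, as without it; blocked within the 10 and 100 pM groups alone it was 2. The block changed no other call of a member.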
